A study of Mus musculus with 6 samples.

Results

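Heparan sulfate is a sulfated sugar chain that is carried on the cell surface mainly by glypicans and syndecans. The account covers the 33 mouse genes of these families, namely 23 genes for enzymes that build or edit the chain, 6 glypican genes and 4 syndecan genes, among 32285 genes in the count matrices. All 33 were found by symbol. The families are covered in full, so no member was added or dropped for its level, although the levels in these nuclei were known when the set was drawn up. The tissue came from wild type mice and was the septal area, a midline forebrain region with a lateral part of mostly inhibitory neurons and a medial part of inhibitory, cholinergic and glutamatergic neurons. The 6 samples form 1 group with no treatment, and no age, sex or number of animals is given in the sources used here. RNA of single nuclei, so named in the title, was caught in droplets and counted as unique molecular identifiers (UMIs), and 54623 of 55537 barcodes held 500 genes or more. Whether the 6 samples came from separate animals is not told in the labels. The p-values thus speak at most to sample-to-sample spread, part or all of which may be technical. The test draws each gene's spread toward that of all genes, so a p-value does not measure that gene's spread over 6 samples alone. The size of very small p-values is not to be set side by side between comparisons.

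The chain grows on a linker of sugars, where Extl2 and Extl3 act at the start and the polymerase of Ext1 and Ext2 extends it. Enzymes of the Ndst family then replace acetyl groups by sulfate, Glce turns glucuronic into iduronic acid, and Hs2st1, the Hs6st enzymes and the Hs3st enzymes add sulfate at further positions. Sulf1 and Sulf2 are secreted enzymes that remove 6-O-sulfate from finished chains outside the cell. Glypicans hold their chains on a lipid anchor and syndecans on a membrane-spanning protein, and both are known to present growth factors and synaptic partners in brain. The pattern of sulfate decides which proteins bind, so both the enzymes and the core proteins of a cell shape what it can bind.

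The upstream bases of 3 members on which the results below turn are printed to show how unlike they are. Hs6st3, Gpc3 and Gpc5 were each higher in the same group of lateral septum neurons. RefSeq, in build GRCm38.p6, places the 250 bases before their starts at chr14:119138015-119138264 (plus strand, Hs6st3), chrX:52613975-52614224 (minus strand, Gpc3) and chr14:115091965-115092214 (plus strand, Gpc5). In the GENCODE annotation of this build the nearest transcript start lies 76 bases farther downstream for Hs6st3, 24 bases farther downstream for Gpc3 and at the same base for Gpc5, and no transcript of these genes starts more than 250 bases upstream. Capitals mark GC boxes, the motif GGGCGG or its reverse complement CCGCCC, which is bound by factors of the Sp family.
Hs6st3: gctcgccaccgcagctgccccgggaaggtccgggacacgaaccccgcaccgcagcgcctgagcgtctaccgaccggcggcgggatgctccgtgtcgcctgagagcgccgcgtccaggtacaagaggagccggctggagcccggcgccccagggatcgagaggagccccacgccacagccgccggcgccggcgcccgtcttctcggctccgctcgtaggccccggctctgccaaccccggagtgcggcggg
Gpc3: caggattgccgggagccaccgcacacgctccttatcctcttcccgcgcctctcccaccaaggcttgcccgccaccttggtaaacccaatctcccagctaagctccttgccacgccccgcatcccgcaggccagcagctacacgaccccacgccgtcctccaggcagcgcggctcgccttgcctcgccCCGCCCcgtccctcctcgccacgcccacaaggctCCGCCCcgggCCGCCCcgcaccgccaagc
Gpc5: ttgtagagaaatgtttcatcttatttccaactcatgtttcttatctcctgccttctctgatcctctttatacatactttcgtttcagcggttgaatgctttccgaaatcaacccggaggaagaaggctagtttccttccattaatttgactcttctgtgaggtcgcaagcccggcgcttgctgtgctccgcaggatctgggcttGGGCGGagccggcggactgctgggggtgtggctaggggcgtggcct
Among these windows Hs6st3 held 36 CG pairs and no GC box, Gpc3 25 CG pairs and 3 GC boxes, and Gpc5 12 CG pairs and 1 GC box. Over the 28 starts listed for 24 members the median was 18.5 CG pairs and 64.3% held a GC box. Over all 32851 listed starts the median was 6 and the share 32.7%. These starts were not limited to genes found in these nuclei, so the sets are unlike, and no test was run. Ext1, Ndst1, Ndst4, Sulf1, Gpc6 and Sdc2 are among the members with no listed start. Of the 28 windows 9 end inside a GENCODE intron of the same gene, both windows of Ndst3 among them, so a listed start need not be a gene's first. Such matches describe letters only. Which start was used was not measured.

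Nuclei were drawn into classes by their UMIs of marker genes, none of which is a member. The 9 broad classes held 10963 astrocyte-like, 2717 oligodendrocyte precursor-like, 7935 oligodendrocyte-like, 2855 ependymal-like, 1087 microglia-like, 831 endothelial-like, 114 fibroblast-like, 488 mural-like (pericyte or smooth muscle) and 25461 neuron-like nuclei, and 2172 nuclei stayed outside. In each class its own markers were higher than in any other class, which is no independent check, since the classes were drawn by these markers. Levels are UMIs per 1000000 UMIs of a class (CPM), given as the lowest, median and highest of the 6 samples, and they compare a gene between classes but not genes with each other, since they are not set per length. Classes differed in depth, with sample medians of 10316 to 13618 UMIs per neuron-like nucleus but 1656 to 2547.5 per endothelial-like nucleus. Markers of other classes were found in every class. Neuron markers stood in astrocyte-like nuclei at 13.0% of their neuron-like level (lowest 12.1%, highest 15.6%) and in oligodendrocyte precursor-like nuclei at 26.3%. Astrocyte markers stood in neuron-like nuclei at 4.01% of their astrocyte-like level and in fibroblast-like nuclei at 15.4%. The 7 members highest in neurons had 56 median levels in other classes, each taken as a percentage of the neuron-like level. Of these 39 lay at or below the highest sample percentage of the neuron markers there. Whether such levels came from neuron RNA or from the class itself was not tested.

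**Figure D1:**
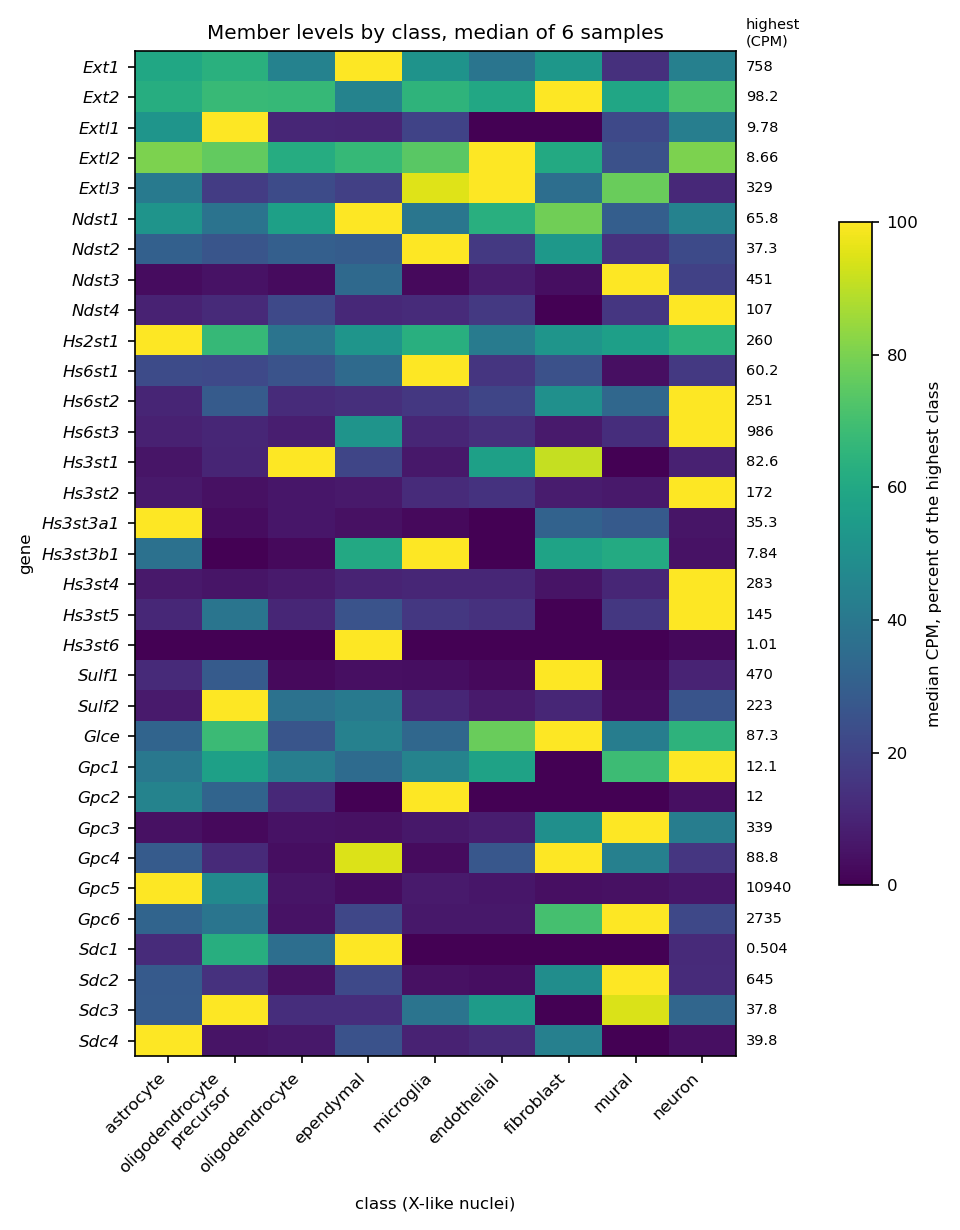
Median level over 6 samples of each member (rows, by role) in the 9 broad classes (columns), coloured as a percentage of the class where the member is highest, whose CPM stands at the right. Gpc5 peaked in astrocyte-like nuclei at 10940 CPM, Gpc6 in mural-like nuclei at 2735 CPM, and Hs6st3 in neuron-like nuclei at 986 CPM.

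Every broad class held the highest level of at least 1 member. By the median of 6 samples 7 members were highest in neuron-like nuclei, 4 each in astrocyte-like, ependymal-like, microglia-like, mural-like and fibroblast-like nuclei, 3 in oligodendrocyte precursor-like, 2 in endothelial-like and 1 in oligodendrocyte-like nuclei. These ranks are a description with no test, and several neighbours in rank overlapped between samples. Under a stricter gate 23 of the 33 kept their highest class. The 10 that did not were Ext2, Extl2, Extl3, Ndst1, Hs3st1, Glce, Gpc3, Gpc4, Gpc6 and Sdc1, and for Ndst1, Hs3st1, Gpc3 and Gpc6 the highest class was then fibroblast-like. Fibroblast-like levels under that gate rest only on replicates 5 and 6, with 10 and 16 nuclei, since the other samples held fewer than 10.

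The start and growth of the chain differed least for Ext2, a subunit of the polymerase, whose class medians ran from 43.8 CPM in ependymal-like to 98.2 CPM in fibroblast-like nuclei. Its partner Ext1 stood at 710, 758 and 865 CPM in ependymal-like nuclei and at 67.8, 104 and 212 CPM in mural-like nuclei (lowest, median and highest here and below). The samples of these classes did not overlap. Extl3 was high in endothelial-like nuclei at 300, 329 and 343 CPM and in microglia-like nuclei at 251, 312 and 352 CPM, which overlap, and low in neuron-like nuclei at 36.1, 37.7 and 42.3 CPM. Extl2 stayed between medians of 2.15 and 8.66 CPM. Extl1, a further glycosyltransferase of the family, peaked at 9.78 CPM in oligodendrocyte precursor-like nuclei, and no UMI was found in endothelial-like nuclei, which allows up to 1.61 CPM.

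Each of the N-deacetylase and N-sulfotransferase genes had a different highest class. Ndst1 was highest in ependymal-like nuclei at 52.1, 65.8 and 71.4 CPM, overlapping with fibroblast-like nuclei at 0, 51.4 and 69.5 CPM. Ndst2 was highest in microglia-like nuclei at 26.5, 37.3 and 50.2 CPM, against 8.11, 8.45 and 9.77 CPM in neuron-like nuclei. Ndst3 stood at 381, 451 and 572 CPM in mural-like, 115, 154 and 176 CPM in ependymal-like and 82.5, 86.8 and 95.9 CPM in neuron-like nuclei. These 3 classes did not overlap. Ndst4 was highest in neuron-like nuclei at 103, 107 and 122 CPM and next in oligodendrocyte-like nuclei at 19.8, 23.7 and 26.1 CPM.

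The 6-O-sulfotransferase genes split between classes. Hs6st1 was highest in microglia-like nuclei at 48.9, 60.2 and 70.3 CPM. Hs6st2 and Hs6st3 were highest in neuron-like nuclei, Hs6st2 at 244, 251 and 260 CPM and Hs6st3 at 930, 986 and 1060 CPM. Ependymal-like nuclei also held much Hs6st3, at 388, 512 and 540 CPM. Hs2st1, the only 2-O-sulfotransferase gene, was highest in astrocyte-like nuclei at 239, 260 and 273 CPM, and its class medians spanned 2.60-fold. Glce, the epimerase, ran from a median of 23.0 CPM in oligodendrocyte-like to 87.3 CPM in fibroblast-like nuclei.

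Among the 3-O-sulfotransferase genes Hs3st2, Hs3st4 and Hs3st5 were neuronal, at medians of 172, 283 and 145 CPM in neuron-like nuclei. Hs3st5 also reached 47.6, 56.4 and 71.2 CPM in oligodendrocyte precursor-like nuclei. Hs3st1, which makes the antithrombin-binding site, was highest in oligodendrocyte-like nuclei at 68.4, 82.6 and 99.9 CPM, overlapping with fibroblast-like nuclei at 0, 75.2 and 220 CPM. Under the stricter gate fibroblast-like nuclei were highest for Hs3st1, from replicates 5 and 6 only. Endothelial-like nuclei held Hs3st1 at 35.4, 47.1 and 75.2 CPM. Hs3st3a1 was highest in astrocyte-like nuclei at 26.8, 35.3 and 42.0 CPM and Hs3st3b1 in microglia-like nuclei at 5.85, 7.84 and 16.6 CPM. Hs3st3a1 and Hs3st3b1 share near-identical catalytic sequence, and whether reads could be split between them was not tested. Hs3st6 was scarce, with 15 UMIs in ependymal-like, 10 in neuron-like, 1 in astrocyte-like and 1 in fibroblast-like nuclei.

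The endosulfatase genes had unlike patterns. Sulf1 was highest in fibroblast-like nuclei at 434, 470 and 625.2 CPM, then in oligodendrocyte precursor-like nuclei at 117, 136 and 144 CPM. Sulf2 was highest in oligodendrocyte precursor-like nuclei at 212, 223 and 236 CPM, against 74.4, 83.6 and 91.1 CPM in oligodendrocyte-like nuclei.

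Glypican genes differed widely in where they were highest. Gpc5 stood at 10630, 10940 and 11590 CPM in astrocyte-like and 5016, 5172 and 5356 CPM in oligodendrocyte precursor-like nuclei, while medians in the other 7 classes lay between 344 and 780 CPM. In 1 of the 6 fibroblast-like samples it reached 2160 CPM. Gpc6 stood at 2429, 2735 and 2864 CPM in mural-like, 1391, 1933 and 2607 CPM in fibroblast-like and 1043, 1063 and 1131 CPM in oligodendrocyte precursor-like nuclei. Gpc3 was highest in mural-like nuclei at 275, 339 and 398 CPM, then in fibroblast-like nuclei at 111, 168 and 266 CPM and in neuron-like nuclei at 121, 144 and 163 CPM. The stricter gate put fibroblast-like nuclei first for Gpc3, from replicates 5 and 6 only. Gpc4, a synapse-promoting glypican when released by astrocytes, was highest in fibroblast-like nuclei at 31.0, 88.9 and 129 CPM and in ependymal-like nuclei at 73.2, 84.1 and 100 CPM, which overlap. Gpc1 and Gpc2 stayed low in every class, with the highest medians at 12.1 CPM for Gpc1 in neuron-like and 11.96 CPM for Gpc2 in microglia-like nuclei.

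Syndecan genes also divided the classes. Sdc2 was highest in mural-like nuclei at 527, 645 and 758 CPM and lowest in endothelial-like nuclei at 18.8, 24.98 and 37.1 CPM. Sdc3 was highest in oligodendrocyte precursor-like nuclei at 35.9, 37.8 and 47.6 CPM and overlapped there with mural-like nuclei at 25.8, 35.7 and 62.2 CPM. Sdc4 was highest in astrocyte-like nuclei at 32.7, 39.8 and 48.7 CPM. Its neuron-like level of 1.395, 1.56 and 2.10 CPM lay within the share of astrocyte markers found in neuron-like nuclei. Sdc1, known from epithelia and plasma cells, was near 0 in every class, with a highest class median of 0.504 CPM from 5 UMIs in ependymal-like nuclei.

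**Figure D2:**
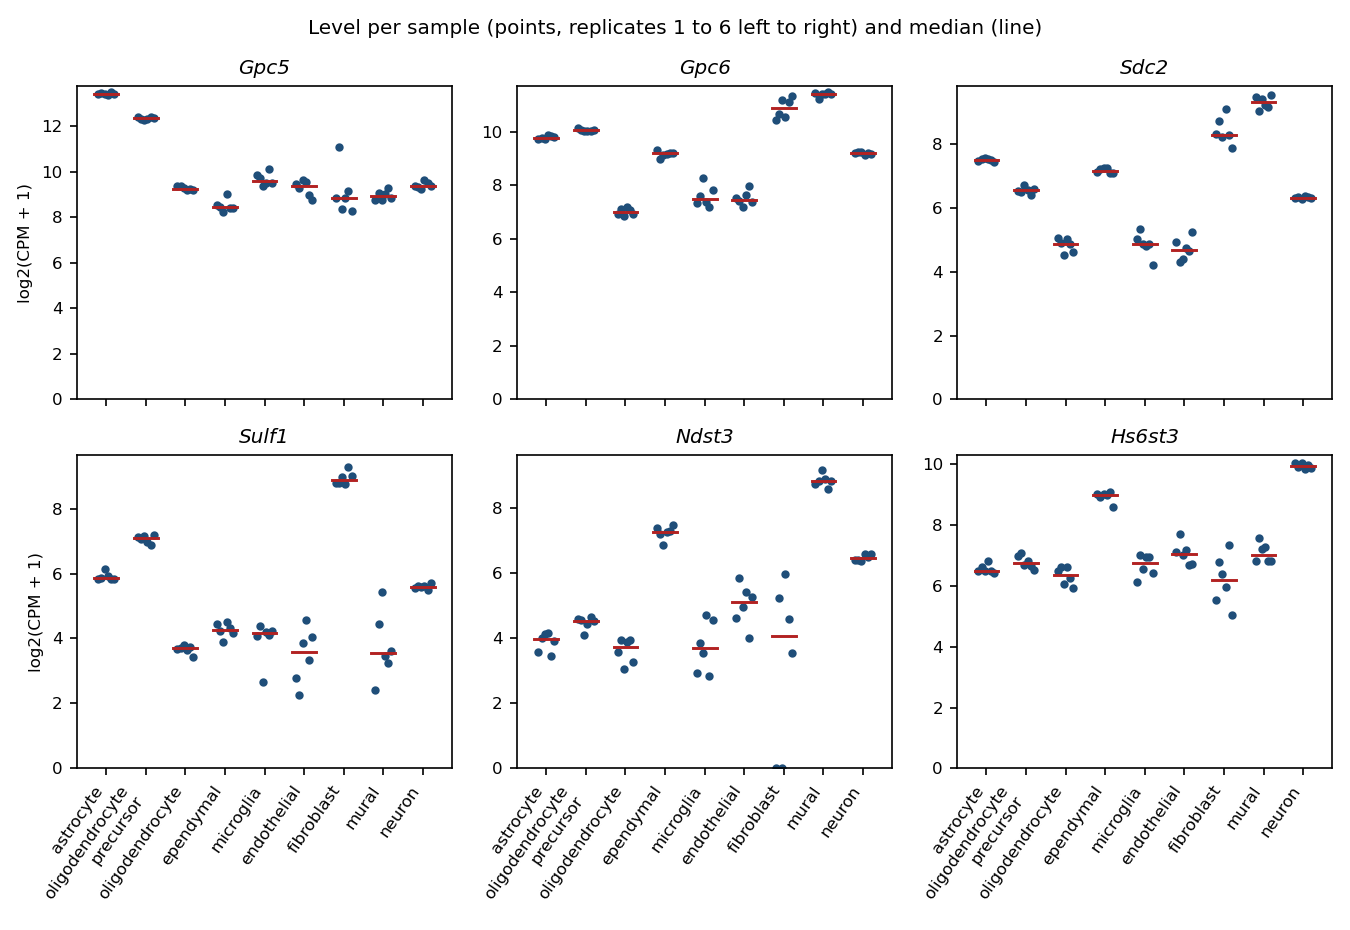
Level of 6 members in each sample (points, replicates 1 to 6 from left to right) and the median (line), on a log2(CPM + 1) axis, in the 9 broad classes. The 6 astrocyte-like points of Gpc5 lie between 10630 and 11590 CPM, above every point of the other classes, and the 6 mural-like points of Ndst3 lie between 381 and 572 CPM.

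Differences between classes were fitted on UMIs summed per sample and class with edgeR's quasi-likelihood test, with the sample as a block and Benjamini-Hochberg adjustment over all genes tested. A log2 difference is given with its standard error. By rule a member is named with a test where the adjusted p lay under 0.05 and the log2 difference was 1 or more in size. Gpc3 in oligodendrocyte precursor-like and Gpc5 in endothelial-like nuclei are given outside this rule, with smaller differences. The comparisons with neuron-like nuclei share the same neuron-like sums.

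Astrocyte-like nuclei were higher than neuron-like nuclei in Sdc4, Gpc5, Hs3st3a1 and Gpc2 and lower in several sulfotransferase genes. Of 31 members tested 14 were higher and 14 lower, while 38.3% of all genes tested were called higher and 41.4% lower, so the members' shares are near the background. The members' median log2 difference was 0.10, against -0.04 for all genes. Sdc4 had the largest difference among the members, at 39.8 CPM in astrocyte-like and 1.56 CPM in neuron-like nuclei in the median, a log2 difference of 4.47 ± 0.10 (edgeR adjusted p = 1.7e-17). Gpc5 was 15.01-fold higher, with a log2 difference of 3.91 ± 0.05 (edgeR adjusted p = 7.7e-21). Hs3st3a1 was higher by 4.07 ± 0.12 on the log2 scale. Gpc2, known from developing neurons, was higher by 3.41 ± 0.16, with medians of 5.33 CPM in astrocyte-like and 0.506 CPM in neuron-like nuclei. All 6 samples agreed in direction for these genes, and the classes did not overlap.

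The neuronal sulfotransferase genes were lower in astrocyte-like nuclei. Hs3st4 stood at 14.2, 19.5 and 29.6 CPM in astrocyte-like against 252, 283 and 303 CPM in neuron-like nuclei, a log2 difference of -3.88 ± 0.07. Hs3st2 stood at 9.82, 11.99 and 14.8 CPM against 155, 172 and 176 CPM, at -3.86 ± 0.06. Every astrocyte-like sample lay far under the lowest neuron-like sample. Hs6st3 (-3.52 ± 0.07), Ndst4 (-3.36 ± 0.09), Gpc3 (-3.32 ± 0.06) and Hs6st2 (-3.29 ± 0.06) were lower as well on the log2 scale, with edgeR adjusted p of 1.1e-16 or less. The astrocyte-like levels of Ndst4, Hs6st2, Hs6st3, Hs3st2 and Hs3st4 lie at or below the share of neuron markers found in these nuclei.

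Oligodendrocyte-like nuclei were lower than neuron-like nuclei in most members tested and much higher in Hs3st1. Of 31 tested 8 were higher and 19 lower than in neuron-like nuclei, where 35.2% of all genes were called higher and 42.1% lower, and the median log2 difference was -1.25 for the members and -0.09 for all genes. Hs3st1 was 10.5-fold higher, at 68.4, 82.6 and 99.9 CPM in oligodendrocyte-like against 6.69, 7.597 and 8.83 CPM in neuron-like nuclei, with a log2 difference of 3.39 ± 0.05 (edgeR adjusted p = 3e-21). It was the only member among the 10 with the largest differences that was higher. Gpc6, the synapse-promoting relative of Gpc4, was lower at 115, 129 and 144 CPM against 563, 597 and 614 CPM, with a log2 difference of -2.21 ± 0.05. Ndst3 (-2.94 ± 0.09) and Ndst4 (-2.21 ± 0.05) were lower too. Hs3st2, Hs3st4, Hs3st5, Hs6st2, Hs6st3 and Gpc3 were lower too, with log2 differences of -3.96 to -3.08 in oligodendrocyte-like nuclei.

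Most members were higher in precursors than in oligodendrocytes. Of 30 tested 17 were higher and 7 lower in oligodendrocyte precursor-like nuclei, 33.9% of all genes were called higher and 32.3% lower, and the median log2 difference was 0.52 for the members against -0.01 for all genes. Sulf1 was 11.3-fold higher, at 117, 136 and 144 CPM in oligodendrocyte precursor-like against 9.82, 11.9 and 13.1 CPM in oligodendrocyte-like nuclei, with a log2 difference of 3.50 ± 0.07 (edgeR adjusted p = 1.8e-21). Several core protein genes were higher as well. Gpc5 was higher by 3.08 ± 0.04, Gpc6 by 3.06 ± 0.05, Sdc3 by 2.99 ± 0.12, Gpc4 by 1.85 ± 0.18, Sdc2 by 1.74 ± 0.08 and Gpc2 by 1.53 ± 0.26 on the log2 scale. Extl1 was higher by 3.15 ± 0.24 and Hs3st5 by 1.88 ± 0.08. The samples of the classes did not overlap for any of these genes.

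Gpc3 was lower, with a log2 difference of -0.86 ± 0.15 (edgeR adjusted p = 2.1e-05) and overlapping samples, and Sdc4 did not pass, with medians of 2.03 CPM in oligodendrocyte precursor-like and 2.58 CPM in oligodendrocyte-like nuclei. Hs3st1 was also lower, at 3.66, 8.46 and 11.98 CPM in oligodendrocyte precursor-like against 68.4, 82.6 and 99.9 CPM in oligodendrocyte-like nuclei. Its log2 difference was -3.37 ± 0.11 (edgeR adjusted p = 1.7e-17), the only lower one among the 10 members with the largest differences. Astrocyte markers, among which Gpc5 is not counted, stood at 8.67% of their astrocyte-like level in oligodendrocyte precursor-like and 6.69% in oligodendrocyte-like nuclei, while Gpc5 stood at 47.3% and 5.57% of its astrocyte-like level.

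**Figure D3:**
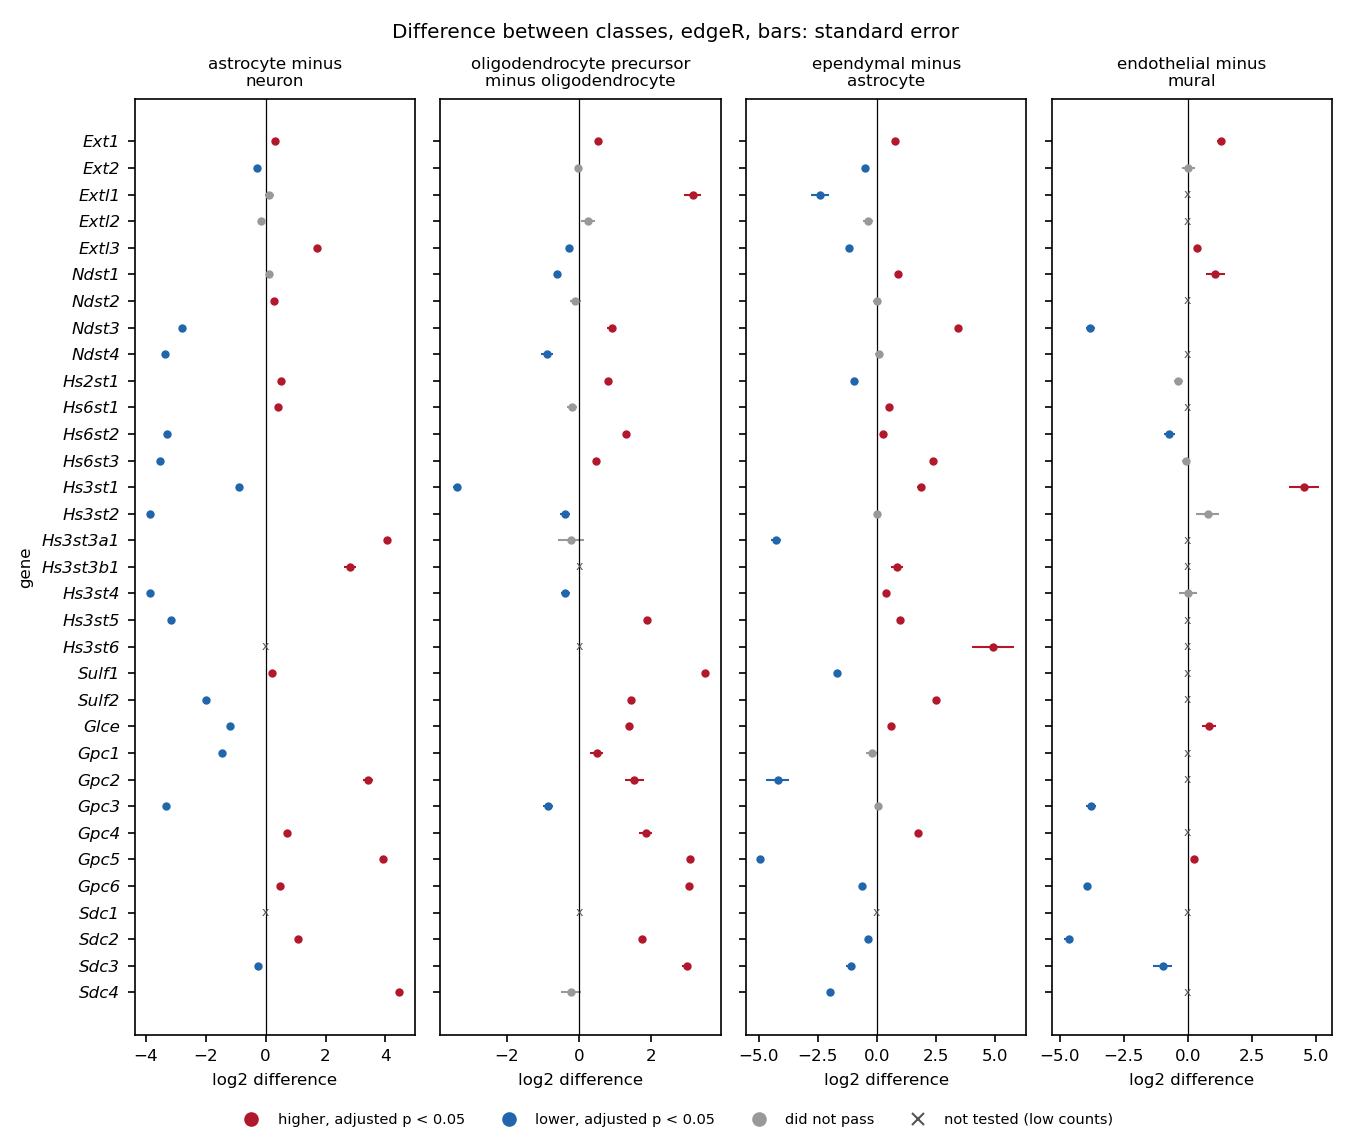
Log2 difference with its standard error for every member tested in 4 comparisons between classes (panels with their own axis ranges, first-named class minus the other). Sdc4 at 4.47 is farthest to the right in the astrocyte-like panel, and Sulf1 at 3.50 in the panel of oligodendrocyte precursor-like nuclei.

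In microglia-like nuclei few members were higher and most were lower than in neuron-like nuclei. Of 31 tested 5 were higher and 22 lower than in neuron-like nuclei, where 24.1% of all genes were called higher and 36.9% lower, and the median log2 difference was -1.51 for the members and -0.33 for all genes. The 5 higher members were Extl3, Ndst2, Hs6st1, Hs3st3b1 and Gpc2. Of them Gpc2 stood at 5.02, 11.96 and 21.6 CPM in microglia-like against 0.312, 0.506 and 0.5996 CPM in neuron-like nuclei, with a log2 difference of 4.15 ± 0.39 (edgeR adjusted p = 2.4e-25). Hs3st3b1 stood at 5.85, 7.84 and 16.6 CPM against 0.289, 0.385 and 0.525 CPM, at 4.11 ± 0.42. These levels rest on 41 and 33 UMIs in microglia-like nuclei. Hs3st4, Hs6st3, Ndst4, Hs3st2, Gpc3, Hs3st5, Ndst3 and Hs6st2 were lower, with log2 differences of -3.88 to -3.15. Microglia-like nuclei held neuron markers at 14.5% of the neuron-like level.

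Ependymal-like nuclei, which line the ventricle beside the septum, were higher than astrocyte-like nuclei in Ndst3 and Sulf2 and lower in Gpc5 and Hs3st3a1. Of 32 tested 14 were higher and 12 lower, which is near the 35.5% of all genes called higher and 34.9% lower, with a median log2 difference of 0.04 for the members and -0.03 for all genes. Ndst3 stood at 115, 154 and 176 CPM in ependymal-like against 10.1, 14.6 and 17.0 CPM in astrocyte-like nuclei, a log2 difference of 3.44 ± 0.09 (edgeR adjusted p = 3.1e-42). Sulf2 was higher by 2.49 ± 0.08, Hs6st3 by 2.37 ± 0.05 and Hs3st1 by 1.87 ± 0.17. Gpc5 was 30.4-fold lower, at 296, 344 and 514 CPM in ependymal-like against 10630, 10940 and 11590 CPM in astrocyte-like nuclei, with a log2 difference of -4.93 ± 0.06. Hs3st3a1 (-4.25 ± 0.22), Extl1 (-2.38 ± 0.38) and Sdc4 (-1.98 ± 0.12) were lower on the log2 scale.

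Low counts carried 2 further differences. Hs3st6 passed with 15 UMIs in ependymal-like and 1 UMI in astrocyte-like nuclei, a ratio per UMI sequenced of 66.7 (95% exact Clopper-Pearson interval 10.3 to 2806, here and below for counting error only). Gpc2 passed with 3 UMIs in ependymal-like and 261 UMIs in astrocyte-like nuclei, a ratio of 0.0511 (95% exact interval 0.0105 to 0.151).

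Vascular nuclei, the sum of endothelial-like, mural-like and fibroblast-like nuclei, had 11 members higher and 17 lower of 32 tested against neuron-like nuclei, with 24.2% of all genes called higher and 34.3% lower. The median log2 difference was -0.32 for the members and -0.25 for all genes. Extl3 stood at 235, 259 and 309 CPM in vascular against 36.1, 37.7 and 42.3 CPM in neuron-like nuclei, with a log2 difference of 2.37 ± 0.08 (edgeR adjusted p = 2.2e-101). Hs3st3b1 was higher by 2.92 ± 0.57, with samples that overlapped at 0, 4.92 and 6.15 CPM in vascular and 0.289, 0.385 and 0.525 CPM in neuron-like nuclei. Sulf2 was lower by a log2 difference of -2.06 ± 0.16 and Extl1 by -2.03 ± 0.55. Hs3st4, Hs6st3, Hs3st2, Hs3st5, Ndst4 and Hs6st2 were lower, with log2 differences of -3.50 to -2.13.

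Within the vascular nuclei endothelial-like nuclei were lower than mural-like nuclei in Sdc2, Gpc6, Ndst3 and Gpc3. Of 17 members tested 6 were higher and 6 lower in endothelial-like nuclei, against 22.9% of all genes called higher and 20.5% lower, with a median log2 difference of 0.02 for the members and 0.00 for all genes. Sdc2 stood at 18.8, 24.98 and 37.1 CPM in endothelial-like against 527, 645 and 758 CPM in mural-like nuclei, a log2 difference of -4.66 ± 0.17 (edgeR adjusted p = 3.1e-69). Gpc6 stood at 144, 175 and 251 CPM against 2429, 2735 and 2864 CPM, at -3.93 ± 0.09. Ndst3 (-3.82 ± 0.17) and Gpc3 (-3.77 ± 0.20) were lower as well. The samples did not overlap for these genes. Gpc5, also a core protein gene, was higher by 0.26 ± 0.10 on the log2 scale.

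Ext1 was higher in endothelial-like nuclei at 233, 296 and 338 CPM against 67.8, 104 and 212 CPM in mural-like nuclei, a log2 difference of 1.29 ± 0.16. Ndst1 was higher by 1.08 ± 0.36 (edgeR adjusted p = 0.0081), a call lost without replicate 2, where the log2 difference was 0.87. Hs3st1 passed with 94 UMIs in endothelial-like and 2 UMIs in mural-like nuclei, a ratio of 30.9 (95% exact interval 8.32 to 259). The count of higher members was 6 with all samples and 3 without replicate 1 or without replicate 2.

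Fibroblast-like nuclei numbered 12 to 32 per sample, so values rest on few UMIs. Their comparison with mural-like nuclei was not run under the stricter gate, which left too few of them. Of 18 members tested 5 were higher and 6 lower than in mural-like nuclei, with 15.2% of all genes called higher and 15.9% lower and a median log2 difference of 0.09 for the members and -0.05 for all genes. Sulf1 stood at 434, 470 and 625.2 CPM in fibroblast-like against 4.31, 10.6 and 42.4 CPM in mural-like nuclei, with a log2 difference of 4.72 ± 0.29 (edgeR adjusted p = 7.9e-29). Hs3st1 passed with 52 UMIs against 2 UMIs, a ratio of 59.8 (95% exact interval 15.8 to 507), and no UMI of it was found in 1 of the 6 fibroblast-like samples. Ext1 was higher by 1.74 ± 0.22 and Gpc4 by 1.001 ± 0.37 on the log2 scale. The call of Gpc4 was lost without replicate 1, 2 or 6, at 0.99, 0.94 and 0.97 on the log2 scale, and the count of higher members was then 3.

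Ndst3 was the lower member with the largest difference in fibroblast-like nuclei, at -4.98 ± 0.34 on the log2 scale. Extl3 (-1.28 ± 0.24), Sdc2 (-1.16 ± 0.18) and Gpc3 (-1.07 ± 0.21) were lower in fibroblast-like than in mural-like nuclei. Astrocyte markers stood at 15.4% of their astrocyte-like level in fibroblast-like nuclei and 6.51% in mural-like nuclei, and their part in these results was not tested.

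Other genes of the pathway were set beside the members from 5 lists. Against neuron-like nuclei 38.3% of all genes tested were higher and 41.4% lower in astrocyte-like, 35.2% higher and 42.1% lower in oligodendrocyte-like, and 24.2% higher and 34.3% lower in vascular nuclei, and the counts of each list are to be read against these shares. For linker synthesis and precursor supply 5 of 13 genes tested were higher and 4 lower in astrocyte-like than in neuron-like nuclei, near the shares of all genes. Xylt1, which puts the first sugar on the core protein, stood at 493, 535 and 565 CPM in astrocyte-like against 119, 133 and 162 CPM in neuron-like nuclei, a log2 difference of 1.88 ± 0.04. Papss2, which makes the sulfate donor, was higher by 2.19 ± 0.06, and Pxylp1, a phosphatase of the linker xylose, was lower at -1.82 ± 0.08. In oligodendrocyte-like nuclei 4 of 13 were higher and 6 lower, among them Slc35b2, a carrier of the sulfate donor, at 1.47 ± 0.15, Pxylp1 at -1.78 ± 0.10 and Papss2 at -0.996 ± 0.12. In vascular nuclei 3 of 13 were higher and 6 lower, with Pxylp1 at -3.07 ± 0.34, Xylt1 at -1.88 ± 0.11 and Papss2 at -1.17 ± 0.26. Xylt1 and Papss2 were thus higher than in neuron-like nuclei in astrocyte-like nuclei and lower in vascular nuclei.

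For heparan sulfate breakdown 5 of 10 genes were higher and 4 lower in astrocyte-like than in neuron-like nuclei, beside 38.3% and 41.4% of all genes. In oligodendrocyte-like nuclei 3 of 10 were higher and 2 lower, beside 35.2% and 42.1%, and in vascular nuclei 1 higher and 3 lower, beside 24.2% and 34.3%. Arsg, the lysosomal sulfatase for 3-O-sulfated glucosamine, stood at 192, 213 and 226 CPM in oligodendrocyte-like against 11.4, 13.0 and 16.8 CPM in neuron-like nuclei. Its log2 difference was 3.97 ± 0.05 (edgeR adjusted p = 1.6e-22). Sgsh, the lysosomal sulfamidase, was higher in oligodendrocyte-like (2.70 ± 0.23) and astrocyte-like nuclei (1.96 ± 0.22), at medians of 3.58 and 2.35 CPM. Idua, the iduronidase, was higher in astrocyte-like nuclei by 1.02 ± 0.06 and lower in vascular nuclei at -1.102 ± 0.32. Arsg was lower in vascular nuclei at -0.75 ± 0.24. Hpse2, a heparanase relative without the enzyme activity, was lower in astrocyte-like (-1.31 ± 0.19) and oligodendrocyte-like nuclei (-1.76 ± 0.24). In vascular nuclei it passed as higher at 1.29 ± 0.33, with samples spread over 0, 2.39 and 42.1 CPM.

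Matrix and part-time heparan sulfate proteoglycans had 4 of 10 higher and 6 lower in astrocyte-like than in neuron-like nuclei, beside 38.3% and 41.4% of all genes. The counts were 4 and 6 in oligodendrocyte-like nuclei, beside 35.2% and 42.1%, and 4 and 5 in vascular nuclei, beside 24.2% and 34.3%. Hspg2, which encodes the basement membrane proteoglycan perlecan, stood at 31.1, 47.2 and 60.0 CPM in vascular against 0.376, 0.584 and 0.646 CPM in neuron-like nuclei, a log2 difference of 5.96 ± 0.26. It was also higher in oligodendrocyte-like nuclei by 1.94 ± 0.27. Nrxn3, a neurexin that can carry the chain at synapses, was lower in astrocyte-like (-2.69 ± 0.06), oligodendrocyte-like (-2.74 ± 0.04) and vascular nuclei (-3.17 ± 0.09). Spock1, a testican, was lower in astrocyte-like (-2.99 ± 0.07) and vascular nuclei (-2.96 ± 0.11), its relative Spock3 in astrocyte-like nuclei (-2.65 ± 0.07) and the collagen gene Col18a1 in oligodendrocyte-like nuclei (-2.72 ± 0.17).

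Chondroitin sulfate synthesis, which competes for the same linker, had 5 of 15 genes higher and 7 lower in astrocyte-like than in neuron-like nuclei, near the 38.3% and 41.4% of all genes. Of 14 genes 4 were higher and 8 lower in oligodendrocyte-like nuclei, beside 35.2% and 42.1%, and 6 higher and 4 lower in vascular nuclei, beside 24.2% and 34.3%. Chst3, a chondroitin 6-O-sulfotransferase, was higher than in neuron-like nuclei by 2.92 ± 0.13 on the log2 scale in astrocyte-like, 4.55 ± 0.11 in oligodendrocyte-like and 3.21 ± 0.36 in vascular nuclei. Csgalnact1, which commits a linker to chondroitin, stood at 546, 589 and 605 CPM in astrocyte-like against 86.3, 99.7 and 112 CPM in neuron-like nuclei, a log2 difference of 2.44 ± 0.05. Chsy3, a chondroitin polymerase gene, was lower in astrocyte-like (-2.51 ± 0.07) and vascular nuclei (-2.47 ± 0.09), and Dse, the dermatan epimerase gene, was higher in vascular nuclei by 2.45 ± 0.14. In oligodendrocyte-like nuclei the sulfotransferase genes Chst15 (-2.17 ± 0.23) and Chst11 (-1.45 ± 0.05) were lower.

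Partners that bind the chain or its core proteins had 4 of 12 higher and 7 lower in astrocyte-like than in neuron-like nuclei, beside 38.3% and 41.4% of all genes. The counts were 3 and 8 in oligodendrocyte-like nuclei, beside 35.2% and 42.1%, and 3 and 9 in vascular nuclei, beside 24.2% and 34.3%. Fgfr3, a fibroblast growth factor receptor that needs heparan sulfate, stood at 147, 161 and 168 CPM in astrocyte-like against 3.42, 4.60 and 6.76 CPM in neuron-like nuclei, a log2 difference of 4.95 ± 0.08. The synaptic partner Lrrtm4 was lower in astrocyte-like (-3.33 ± 0.08), oligodendrocyte-like (-3.11 ± 0.06) and vascular nuclei (-3.15 ± 0.09), and Lrrtm3 in astrocyte-like nuclei (-3.11 ± 0.06). Gpr158, a receptor for Gpc4, was lower in oligodendrocyte-like (-3.13 ± 0.05) and vascular nuclei (-3.25 ± 0.09). Ptprd, a receptor phosphatase, was higher in oligodendrocyte-like nuclei by 1.58 ± 0.04. Notum, a secreted enzyme that acts on Wnt proteins and binds glypicans, was higher in vascular nuclei by 4.92 ± 0.25.

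Of the 25461 neuron-like nuclei, markers then placed 10422 in a lateral septum-like, 916 in a striatal-like and 751 in a glutamatergic-like class. A further 991 were medial septum-like and 283 cholinergic-like, and many entered none of these classes. Lateral septum-like neurons were rich in Gpc3. It stood at 170, 192 and 215 CPM in lateral septum-like against 6.34, 15.1 and 27.4 CPM in glutamatergic-like neurons, 13.9-fold higher, with a log2 difference of 3.79 ± 0.17 (edgeR adjusted p = 9.2e-11). Of 30 members tested 8 were higher and 9 lower, with 17.8% of all genes called higher and 15% lower and a median log2 difference of 0.02 for the members and -0.01 for all genes. Sulf2 was higher by 1.89 ± 0.13, Hs6st3 by 1.39 ± 0.10, Gpc4 by 1.16 ± 0.29, Hs3st2 by 1.12 ± 0.08 and Hs6st2 by 1.04 ± 0.09 on the log2 scale. Hs3st1 was lower at 4.63, 5.61 and 6.97 CPM against 11.6, 17.9 and 27.4 CPM in glutamatergic-like neurons, a log2 difference of -1.59 ± 0.18. Sdc3 was lower at -1.38 ± 0.11, and Gpc2 at -1.95 ± 0.57 with overlapping samples. The call of Gpc2 was lost without replicate 1 or 5, at -1.91 and -1.70 on the log2 scale, and the count of lower members was then 5. The calls of Gpc4 (log2 difference 1.16, edgeR adjusted p = 0.079) and Hs3st1 (-1.23, edgeR adjusted p = 0.099) were lost under the stricter gate.

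Against striatal-like neurons, which are also inhibitory, 10 of 30 members were higher and 7 lower, with 14.6% of all genes called higher and 13.3% lower and a median log2 difference of 0.08 for the members and 0.01 for all genes. Hs3st2 stood at 234, 247 and 255 CPM in lateral septum-like against 32.8, 46.2 and 79.0 CPM in striatal-like neurons, a log2 difference of 2.39 ± 0.12 (edgeR adjusted p = 1.6e-13). Sulf1 stood at 22.5, 27.4 and 31.6 CPM against 109, 137 and 204 CPM, at -2.35 ± 0.10. The endosulfatase genes thus went opposite ways, with Sulf2 higher by 1.15 ± 0.08. Gpc3 was higher by 1.35 ± 0.11 and Gpc4 by 1.30 ± 0.21, where the samples of Gpc4 overlapped. Hs3st3a1 was lower at 0.518, 0.776 and 1.33 CPM against 4.65, 9.97 and 17.9 CPM, a log2 difference of -3.54 ± 0.27. Hs3st3b1 was lower at -3.08 ± 0.59, with overlapping samples. The lateral septum-like sums are shared by both comparisons. Under the stricter gate the count of higher members against striatal-like neurons was 6, without replicates 3 and 5, which held 9 and 8 striatal-like nuclei.

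Lateral septum-like neurons were further grouped by 5 pairs of marker genes, and each group was compared with all other lateral septum-like neurons, so the comparisons share most of their nuclei. The groups held 392 nuclei with Pax6 and Eya4, 215 with Col6a3 and Tacr1, 232 with Calcr and Prlr, 958 with Col25a1 and Tll1, and 1304 with Ano2 and Ntf3. Another 6845 lateral septum-like nuclei had no pair and made up most of the other side of each comparison. Of the 29 members tested in all 5 comparisons 6 (Ndst4, Hs6st3, Sulf2, Gpc3, Gpc5 and Gpc6) were called in all, each in both directions, and 9 in none. Of the 16304 genes tested in all 5 comparisons 2.06% were called in all and 61.4% in none. No syndecan gene other than Sdc2 was called. Membership needed both genes of a pair, and depth differed between groups. The median UMIs per nucleus were above those of the other lateral septum-like neurons in 6 of 6 samples for the groups with Ano2 and Ntf3, Col25a1 and Tll1, and Col6a3 and Tacr1, in 5 for Calcr and Prlr and in 3 for Pax6 and Eya4. They ran from 16213 to 19766 UMIs per sample with Ano2 and Ntf3, against 11562 to 15068 UMIs in the others, and from 12338 to 16826 UMIs with Pax6 and Eya4, against 12040 to 15627 UMIs.

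**Figure D4:**
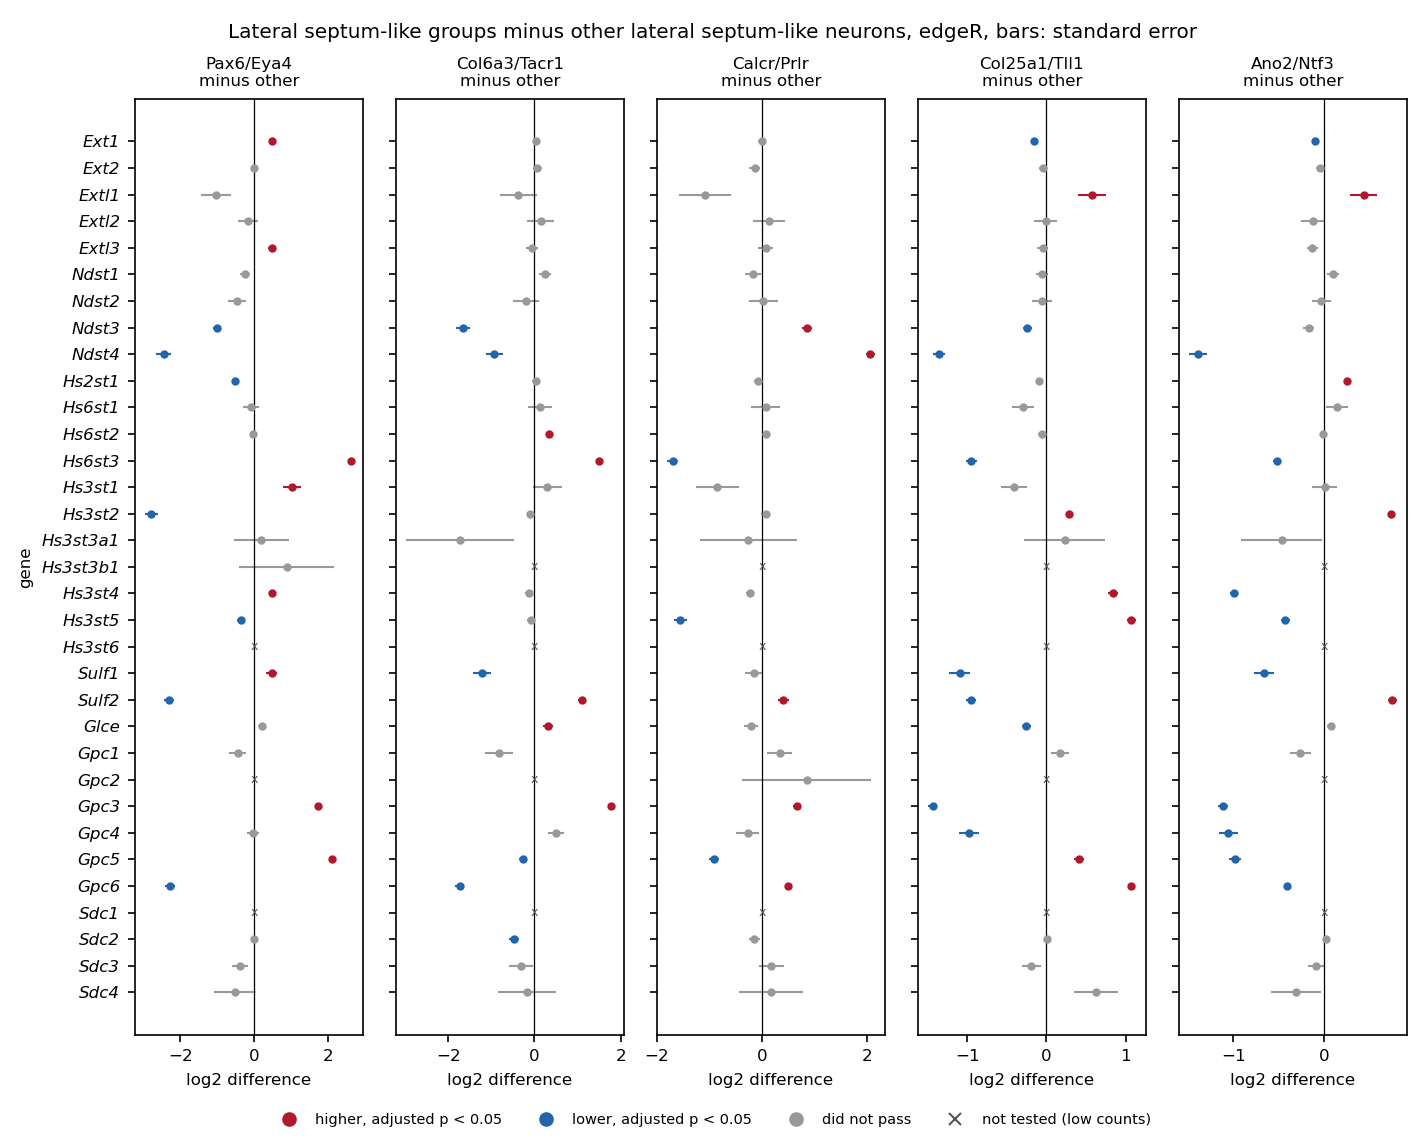
Log2 difference with its standard error for every member tested between each of 5 groups of lateral septum-like neurons and the other lateral septum-like neurons (panels with their own axis ranges). Hs6st3 lies at 2.62 in the group with Pax6 and Eya4 and at -1.70 in the group with Calcr and Prlr.

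The group with Pax6 and Eya4 had the most named members of the 5, at 9, with 8 of 30 tested higher and 7 lower and with 8.29% of all genes called higher and 12.2% lower. The median log2 difference was -0.06 for the members and -0.04 for all genes. Hs6st3 stood at 5018, 6123 and 7137 CPM in this group against 936, 996 and 1122 CPM in the other lateral septum-like neurons, 6.13-fold higher, with a log2 difference of 2.62 ± 0.06 (edgeR adjusted p = 3.7e-28). Gpc5 stood at 1736, 1893 and 2439 CPM against 390, 458 and 540 CPM, at 2.11 ± 0.07. Gpc3 stood at 460, 603 and 745 CPM against 163, 180 and 209 CPM, at 1.74 ± 0.07. The start of Hs6st3 printed above is CG-rich and holds no GC box, whereas that of Gpc3 holds 3. Pax6 is also expressed by astrocytes, so the 8 astrocyte markers were summed. They stood at 256, 490 and 704 CPM in this group against 302, 322 and 384 CPM in lateral septum-like neurons with no pair, and at 8754, 9244 and 9452 CPM in astrocyte-like nuclei. In astrocyte-like nuclei Gpc5 stood at 10630, 10940 and 11590 CPM and Hs6st3 at 84.8, 89.3 and 113 CPM. The part of astrocyte RNA in these results was not tested.

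The same neurons with Pax6 and Eya4 were low in other members. Hs3st2 stood at 10.9, 27.4 and 77.2 CPM against 234, 248.8 and 254 CPM in the other lateral septum-like neurons, with a log2 difference of -2.78 ± 0.17 (edgeR adjusted p = 1.2e-15). Ndst4 (-2.45 ± 0.20), Sulf2 (-2.30 ± 0.14), Gpc6 (-2.28 ± 0.14) and Ndst3 (-1.01 ± 0.12) were lower, and the samples did not overlap for any of these genes. Hs3st1 was higher by 1.02 ± 0.24 with overlapping samples. The calls of Hs3st1 and Ndst3 were lost under the stricter gate. Replicates 2 and 5 did not enter there, with 8 and 9 nuclei in the group, so samples were lost as well.

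In the group with Col6a3 and Tacr1, Gpc3 and Hs6st3 were higher as well, with 5 of 29 members higher and 6 lower and with 4.78% of all genes called higher and 6.34% lower. The median log2 difference was -0.08 for the members and -0.07 for all genes. Gpc3 stood at 508, 557 and 809 CPM in this group against 169, 186 and 207 CPM in the other lateral septum-like neurons, a log2 difference of 1.77 ± 0.07 (edgeR adjusted p = 1.9e-29). Hs6st3 stood at 2731, 3317 and 3592 CPM against 1061, 1140 and 1259 CPM, at 1.51 ± 0.06. Sulf2 was higher by 1.09 ± 0.09, the reverse of its direction in the group with Pax6 and Eya4. Gpc6 (-1.74 ± 0.10), Ndst3 (-1.66 ± 0.17) and Sulf1 (-1.22 ± 0.21) were lower. Under the stricter gate 3 members were higher, without replicates 4 and 6, which held 6 and 7 nuclei of this group.

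The group with Calcr and Prlr was the only one of the 5 in which Ndst4 was higher. It stood at 351, 434 and 626 CPM in this group against 96.1, 101 and 110 CPM in the other lateral septum-like neurons, 4.19-fold higher, with a log2 difference of 2.07 ± 0.08 (edgeR adjusted p = 1.1e-46). Hs6st3 was lower at 130, 405 and 879 CPM against 1148, 1208 and 1340 CPM, at -1.70 ± 0.10, with a wide spread between samples. Hs3st5 was lower at 24.8, 47.9 and 109 CPM against 131, 137 and 150 CPM, at -1.56 ± 0.12. In all 5 of 30 members were higher and 3 lower, while 2.76% of all genes were called higher and 5.95% lower. The median log2 difference was 0.01 for the members and -0.05 for all genes. These calls were not tested under the stricter gate, which left too few nuclei in this group.

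The group with Col25a1 and Tll1 was rich in Gpc6 and Hs3st5. Gpc6 stood at 875, 945 and 1094 CPM in this group against 453, 463 and 482 CPM in the other lateral septum-like neurons, with a log2 difference of 1.07 ± 0.04 (edgeR adjusted p = 1.2e-15). Hs3st5 was higher at 215, 255 and 277 CPM against 111, 121 and 137 CPM, at 1.07 ± 0.05. Gpc3 (-1.44 ± 0.06), Ndst4 (-1.36 ± 0.08) and Sulf1 (-1.09 ± 0.13) were lower. Counts were 6 of 29 higher and 9 lower, with 6.19% of all genes called higher and 6.27% lower, and the median log2 difference was -0.06 for the members and 0.00 for all genes.

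The group with Ano2 and Ntf3 was low in Ndst4 and in Gpc3, at 28.2, 48.9 and 70.1 CPM for Ndst4 against 118, 125 and 132 CPM in the other lateral septum-like neurons. The log2 differences were -1.39 ± 0.10 for Ndst4 (edgeR adjusted p = 4e-11), -1.12 ± 0.05 for Gpc3 and -1.05 ± 0.10 for Gpc4. Of 29 members 4 were higher and 10 lower, while 11.5% of all genes were called higher and 10.7% lower. The median log2 difference of the members in this group was -0.13, against -0.01 for all genes.

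**Figure D5:**
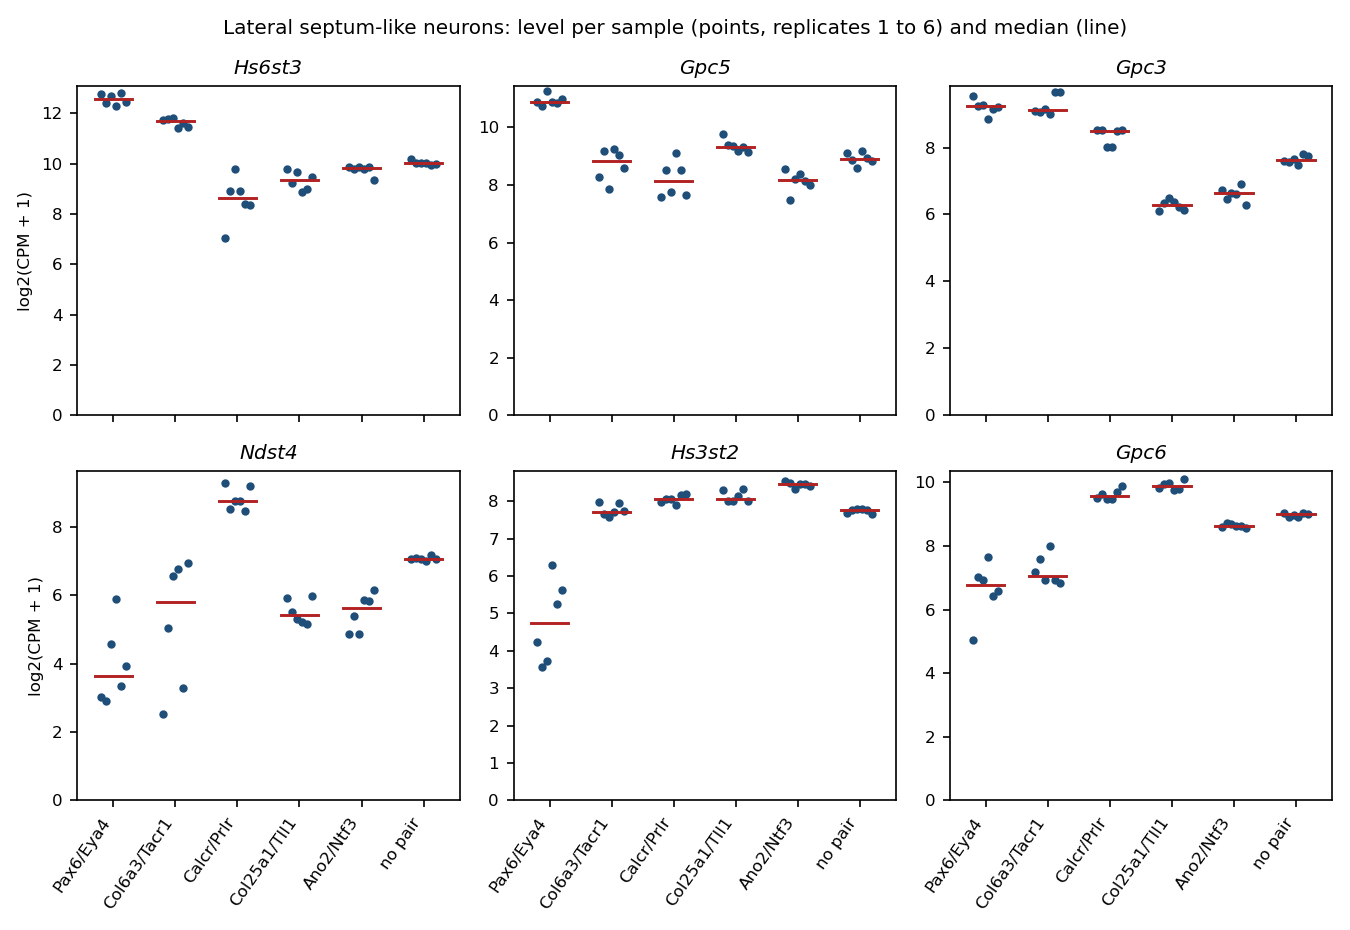
Level of 6 members in each sample (points, replicates 1 to 6 from left to right) and the median (line) on a log2(CPM + 1) axis, in 5 groups of lateral septum-like neurons and in those with no pair. The 6 points of Hs6st3 in the group with Pax6 and Eya4 lie between 5018 and 7137 CPM, and those of Ndst4 in the group with Calcr and Prlr between 351 and 626 CPM.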

How the data were processed

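Nuclei from 6 samples of wild type mouse septal area were analysed. The authors deposited unnormalised UMI counts for each gene and barcode, as matrices of barcodes already called as cells. They were made with Cell Ranger 3.1.0 and STAR, per the submitters' processing notes, while the file headers name Cell Ranger 5.0.0, and which version produced the counts was left unresolved. The build, the annotation release and the use of intron or antisense reads are each not given in the sources used here. Per sample 7393 to 11134 barcodes and 70183544 to 95175260 UMIs were present, and no pair of samples shared more than 0.433% of barcodes.

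Barcodes with fewer than 500 genes (914) were left out. There were 822 barcodes with 450 to 499 genes and 712 with 500 to 549. A barcode entered a class when its marker UMIs per 10000 reached 0.3 of the level of that class with 2 markers or more, and was removed as a possible doublet when another class reached 0.5 (1185 barcodes). Just under the 0.3 limit, from 0.25, lay 281 barcodes, and 405 lay between 0.3 and 0.35. No doublet caller was run, and no mitochondrial limit was set, since 18 kept barcodes exceeded 5%. A further 177 neurons with immature markers and 810 barcodes that entered no class were left out. Lateral septum-like neurons had Trpc4 and Dgkg, 10 or more marker UMIs per 10000 (1709 at 8 to 10, 1654 at 10 to 12), a GABAergic UMI, and no glutamatergic UMI. Groups by gene pairs needed both genes and 3 or more UMIs of a pair, and 476 nuclei in several groups were left out. Thresholds were set after the data were seen. The marker lists were trimmed after the data were seen, and an item left out of them is not reported here. The members and lists were chosen with earlier results of these data known.

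UMIs of all nuclei of a class were added up within a sample and tested with edgeR 4.0.16 in R 4.3.3 (filterByExpr, TMM factors, quasi-likelihood F test, sample as a block because both sums come from the same library), with Benjamini-Hochberg adjustment over all genes tested. The standard error is the log2 difference divided by the square root of F. TMM factors set log2 differences apart from CPM ratios by -0.52 in microglia-like and -0.43 in vascular nuclei against neuron-like nuclei, by -0.23 between fibroblast-like and mural-like nuclei, and by -0.12 or less in size elsewhere. Members named with a test, other than those given outside the rule, had an adjusted p under 0.05 and a log2 difference of 1 or more in size. At most 10 were named per comparison, and from each pathway list at most 3 genes. Genes singled out otherwise were chosen after their values were seen. The fit was also run on simulated counts with a single spread, few changed genes and changes only in genes with ample counts. That setting is unlike these comparisons, so it cannot speak to genes with few UMIs or to large shifts between classes. Alternatives were DESeq2 1.42.0, RLE size factors in edgeR, no scaling factors, no filter on low counts, a stricter gate (0.6 and 0.25), 1000 genes per nucleus, leaving out the 5% of nuclei with the most UMIs in a class and sample, no sample block, all classes in 1 fit and leaving out each replicate. Promoter windows came from a RefSeq table.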

Additional observations from a re-analysis of the deposited data

Results flagged for a closer look

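Of the 33 highest class levels tested for a sample far from the others, 2 stood out, and chance flags about 1 in 20. Gpc6 in mural-like nuclei was 2429 CPM in replicate 2, from 470 UMIs, while the other 5 samples lay between 2708 and 2864 CPM. Sdc3 in oligodendrocyte precursor-like nuclei was 47.61 CPM in replicate 6, from 147 UMIs, while the other 5 samples lay between 35.91 and 39.39 CPM.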

How the results depend on the processing

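No named member reversed its direction under any alternative that was run for it, and 1686 alternative values kept their side of the threshold. Another 12 did not and belong to Ndst1 between endothelial-like and mural-like nuclei (log2 difference 0.87 without replicate 2), Gpc4 between fibroblast-like and mural-like nuclei (0.89 to 1.05 under 5 alternatives), Hs3st1 (-1.23) and Gpc4 (1.16) under the stricter gate and Gpc2 (-1.91 and -1.70) without replicate 1 or 5 between lateral septum-like and glutamatergic-like neurons, and Ndst3 (-0.85) and Hs3st1 (0.94) under the stricter gate in the group with Pax6 and Eya4. Of the member counts 425 stayed within 1.5 times and 14 did not. The count higher in endothelial-like than mural-like nuclei (6) was 3 under DESeq2 and with no replicate block, and 3 to 6 when leaving out a replicate. The count higher in fibroblast-like than mural-like nuclei (5) was 3 under DESeq2, with no filter and with no replicate block, and 3 to 5 when leaving out a replicate. The count lower in lateral septum-like than glutamatergic-like neurons (9) was 5 to 9 when leaving out a replicate. Under the stricter gate the count higher against striatal-like neurons (10) was 6, and that in the group with Col6a3 and Tacr1 (5) was 3. Both rest on fewer samples there, as does the group with Pax6 and Eya4, since samples with under 10 nuclei did not enter. No replicate block changed no other count by over 1.5 times. Of the members' highest levels 8 moved by more than the spread between samples, all under the stricter gate. They belong to Ext2, Hs6st2, Hs3st2, Hs3st3a1, Sulf2, Gpc5, Gpc6 and Sdc3. Only that of Ext2 is a fibroblast-like level, which rests on replicates 5 and 6 only under that gate. With no scaling factors, added after the data were seen, the median of all genes moved by 0.52 in microglia-like, 0.43 in vascular and 0.12 in astrocyte-like nuclei against neuron-like nuclei and by 0.22 between fibroblast-like and mural-like nuclei. The share of higher genes among all calls was then 60.0% against 39.5%, 60.5% against 41.3%, 54.0% against 48.0% and 63.3% against 48.8% with TMM. In the groups with Calcr and Prlr it was 31.7% with TMM, 43.1% with RLE size factors, 45.7% under DESeq2 and 49.2% with no factors, with Col6a3 and Tacr1 43.0%, 55.6%, 59.8% and 35.5%, and with Ano2 and Ntf3 51.6% with TMM and 36.5% with no factors, and with Col25a1 and Tll1 49.7% and 38.7%. A fit of all classes at once was not run for the 5 groups of lateral septum-like neurons, whose sums overlap. The stricter gate was not run for the group with Calcr and Prlr, which then held 0 to 6 nuclei per sample. It was also not run for fibroblast-like against mural-like nuclei, where fibroblast-like nuclei then numbered 3 to 16 per sample. Depth limits Sdc1, Hs3st6, Gpc2 and the fibroblast-like values, where a few UMIs decide a level.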

Other observations

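Neurons of 2 further classes had no comparison of their own, though their UMIs are part of the neuron-like sums used above. Their levels of several members are given here. In 991 medial septum-like neurons Hs3st2 stood at 24.1, 25.7 and 44.5 CPM (lowest, median and highest of 6 samples) and Hs6st2 at 97.5, 116 and 144 CPM. In the 10422 lateral septum-like neurons Hs3st2 stood at 234, 247 and 255 CPM and Hs6st2 at 289, 315 and 327 CPM. Medial septum-like neurons had Hs6st3 at 1003, 1211 and 1617 CPM, overlapping with lateral septum-like neurons at 1125, 1159 and 1327 CPM. In 283 cholinergic-like neurons Hs6st3 stood at 241, 381 and 462 CPM, Ndst3 at 13.2, 27.0 and 63.1 CPM and Sulf2 at 15.1, 23.7 and 33.9 CPM. This class held Chat at 158.5, 176 and 298.2 CPM, but also Gad2 at 197.7, 246.3 and 258.1 CPM and Trpc4 at 454.5, 519.8 and 565.8 CPM. Lateral septum-like neurons held Gad2 at 240.9, 257.1 and 272 CPM and Trpc4 at 849.5, 863.9 and 897 CPM. The cholinergic-like gate set no limit on GABAergic or lateral septum markers, so the class is not cholinergic by all its markers. For Sulf2 medial septum-like neurons stood at 69.9, 89.1 and 100 CPM. These values are a description with no test.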
